A study of Mus musculus with 4 samples.

Results

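The BATF family of mouse transcription factors was described across 4 expression arrays of bone marrow-derived macrophages. Its 3 genes, Batf, Batf2 and Batf3, were found by gene symbol in the authors' deposited table or by the transcript each scanner file gives for a probe, and they are 3 of 25107 genes named on the array. Each had 1 probe, printed as 1 spot, among 56605 probes. The Batf probe reports transcript NM_016767 from chromosome 12 (band 12qD2), the Batf2 probe NM_028967 from chromosome 19, and the Batf3 probe NM_030060 from chromosome 1 (band 1qH6). The files do not say which exon each probe reads.

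The macrophages came from femoral marrow of male C57BL/6J mice and were grown in 3 ng/ml macrophage colony-stimulating factor until day 5. The groups were Batf2-/- cells given R848 at 100 ng/ml for 8 h, Batf2-/- cells left untreated, wild-type (WT) cells given R848 at 100 ng/ml for 8 h, and WT cells left untreated, with 1 array each. R848 (resiquimod) is a synthetic imidazoquinoline that mouse cells sense through TLR7 in endosomes. The sources used here do not give how many mice stood behind a culture, how the Batf2 allele was made or whether littermates served as WT, and the design asks how loss of Batf2 alters the macrophage response to R848.

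BATF proteins are basic leucine zipper (bZIP) factors, which carry a DNA-binding and dimerization region. They pair with JUN proteins in place of FOS at AP-1 sites, and the pair can bind together with an interferon regulatory factor, IRF4 or IRF8, at composite elements of immune genes. BATF is known for its roles in T helper and B cells, BATF3 for the development of type 1 conventional dendritic cells, and BATF2, an interferon-inducible member, for work with IRF1 in activated mouse macrophages.

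The promoters of the family are shown because they are the sequence beside which the responses below can be read. The 250 bases before the transcription start were taken from RefSeq (GRCm38.p6, plus strand), for Batf at chr12:85686470-85686719 and for Batf3 at chr1:191098164-191098413, and capitals mark the motif match found.
Batf promoter: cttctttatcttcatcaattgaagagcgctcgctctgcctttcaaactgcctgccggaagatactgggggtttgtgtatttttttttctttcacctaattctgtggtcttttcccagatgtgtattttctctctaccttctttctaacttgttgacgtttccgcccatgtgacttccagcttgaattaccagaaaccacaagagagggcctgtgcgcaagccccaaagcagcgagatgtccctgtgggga
Batf3 promoter: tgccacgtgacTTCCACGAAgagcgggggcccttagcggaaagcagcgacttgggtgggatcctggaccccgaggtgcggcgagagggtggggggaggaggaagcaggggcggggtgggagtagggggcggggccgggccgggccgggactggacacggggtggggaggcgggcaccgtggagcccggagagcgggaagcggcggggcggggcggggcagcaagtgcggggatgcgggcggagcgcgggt

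The 5 motifs searched, on both strands, were AP-1 (TGANTCA), CRE (TGACGTCA), ISRE (GAAA, any 2 bases, GAAA), GAS (TTCNNNGAA) and the NF-kB consensus. These letters stood in 6.75%, 1.55%, 2.98%, 7.02% and 3.90% of 32851 promoters of this length, in that order. The Batf window held 0 matches to the 5 motifs. The Batf3 window held 1 match, a GAS element, the class of site that STAT dimers bind, whose first base lies 239 bases before the start. The GC content was 46.4% for Batf and 76.0% for Batf3, against a median of 52.4% over all promoters. A match is only a match of letters, and 0 matches say only that these letters are not in this window.

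The 4 arrays shared 1 slide and 1 scan, and no comparison crosses slides. The share of probes well above background was 64.9%, 71.4%, 60.6% and 69.6% in Batf2-/- with R848, Batf2-/- untreated, WT with R848 and WT untreated. The 7 macrophage markers (Adgre1, Csf1r, Cd68, Mertk, Fcgr1, Itgam and Lyz2) were well above background on all 4 arrays. Their signals summed to 198564 and 191286 in Batf2-/- cells with R848 and untreated and to 177844 and 176104 in WT cells with R848 and untreated. These sums hide opposite changes with R848. Adgre1 rose 2.31-fold in Batf2-/- and 2.54-fold in WT cells, and Mertk fell 3.98-fold and 5.66-fold. In each response 1 of the 7 was called higher and 1 lower. The shares of all genes were 6.73% higher and 6.47% lower in the Batf2-/- response, and 5.94% and 6.73% in the WT response. Markers of basophils and mast cells (8 genes) summed to 619 and 607 in Batf2-/- cells with R848 and untreated, against 3549 and 6327 in WT cells with R848 and untreated. Markers of granulocyte precursors (5 genes) summed to 582 and 1773, against 5321 and 25347, in the same order. Of the basophil and mast cell markers, 4 in Batf2-/- with R848 and 7 in Batf2-/- untreated were well above background, against 8 in each WT group, and all 5 precursor markers were well above background everywhere. Each sum takes in only the markers well above background on that array. The 619 and 607 hide opposite changes, since Hdc read 460 with R848 and 198 untreated. In that Batf2-/- response 3 of the 7 basophil and mast cell markers measured were called lower, against 6.47% of all genes. Of these 3, Prss34 only just passed 2-fold. Hdc was the 1 called higher, against 6.73% of all genes. In the WT response 4 of 8 were called lower and 1 higher, against 6.73% and 5.94% of all genes. Between the genotypes 6 of 8 were called lower in Batf2-/- cells with R848 and 7 of 8 untreated, and 0 higher. The shares of all genes called lower there were 2.42% and 3.18%. In these bulk samples fewer cells of a type and less RNA per cell cannot be told apart.

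Batf2 itself, the deleted gene, was low or moderate on every array. Its probe read 10.8 ± 3.86 in Batf2-/- cells with R848 and 26.7 ± 4.09 in Batf2-/- cells untreated, against 94.8 ± 10.6 in WT cells with R848 and 34.1 ± 4.64 in WT cells untreated. These are intensities after Feature Extraction's own background subtraction, and each ± is that program's error estimate for the spot (1 SD), which covers technical error and leaves out the spread between cultures. The WT array with R848 was the highest, and the Batf2-/- array with R848 was the lowest and not well above background: 6 of its 308 negative control spots were as bright or brighter. The 2 untreated arrays overlapped within their errors.

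With R848, Batf2 was therefore at least 6.20-fold lower in Batf2-/- than in WT cells (log2 -2.63 at the bound, -3.06 as measured). Without R848 the log2 difference was -0.27, with a propagated spot error of 0.30. Both untreated signals stood clear of the negative controls, of which 0 of 308 were as bright on either array. The untreated Batf2-/- signal was 10.2 times the median negative control spot, against 12.0 times in untreated WT cells. Whether the probe falls inside the removed stretch of Batf2 could not be read from the files or labels, so a signal in untreated Batf2-/- cells checks nothing about the genotype.

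In WT cells Batf2 rose 2.91-fold with R848 (log2 1.54, propagated error 0.25), and 457 of 17356 genes measured on both arrays had a larger increase. In Batf2-/- cells it was at least 1.77-fold lower with R848 than without (log2 -0.82 at the bound, -1.25 as measured), short of the 2-fold at which a gene is called higher or lower here. Batf2 has no row in the authors' deposited table. Every one of the 39374 rows there was well above background in Batf2-/- cells with R848, where the lowest scaled intensity was 59.9. At that array's factor of 4.13 the Batf2 signal would be 44.6.

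**Figure D1:**
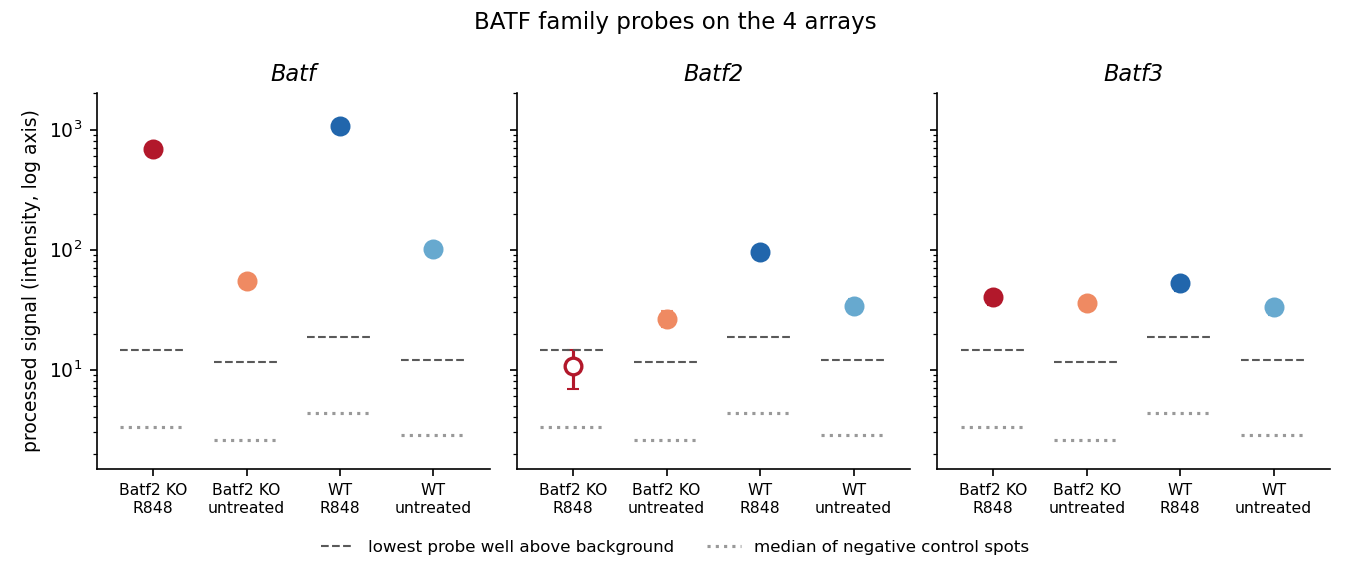
Processed signal of the Batf, Batf2 and Batf3 probes (log axis) on the 4 arrays; bars are Feature Extraction's spot error (1 SD), mostly hidden by the points, and the open circle was not well above background. Batf stands at 689 and 1079 on the arrays with R848 of Batf2-/- and WT cells, Batf2 is highest in WT cells with R848, and Batf3 stays between 33.0 and 52.6.

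Batf was the member of the family that passed 2-fold with R848 in both genotypes. Its probe read 689 ± 69.0 in Batf2-/- cells with R848 and 54.6 ± 6.08 in Batf2-/- cells untreated, against 1079 ± 108 in WT cells with R848 and 101 ± 10.6 in WT cells untreated. Both arrays with R848 lay above both untreated arrays, and within each treatment the WT array was the higher, by more than the spot errors. None of the negative control spots (0 of 308 on each array) reached these signals.

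Batf rose 13.1-fold with R848 in Batf2-/- cells (log2 3.72, propagated error 0.22) and 11.2-fold in WT cells (log2 3.48, error 0.21). Of the genes measured, 67 of 18352 on both Batf2-/- arrays and 51 of 17356 on both WT arrays had a larger increase. In the authors' deposited table the log2 ratios were 3.68 in Batf2-/- and 3.46 in WT cells. The responses of the 2 genotypes differed by 0.23 on the log2 scale, within the propagated error of 0.30.

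The level of Batf was lower in Batf2-/- than in WT cells at both times, by less than 2-fold. The log2 difference was -0.57 with R848 (a ratio of 1.49, propagated error 0.20) and -0.81 without (a ratio of 1.75, error 0.22). Of all measured genes, 5.95% lay below the first value and 4.0% below the second. The authors' deposited table gives log2 ratios of -0.55 with R848 and -0.77 without. Summed basophil, mast cell and granulocyte precursor markers differed between the genotypes in the same direction, as given above. Neutrophil markers did so too, with sums of 72957 in Batf2-/- and 116649 in WT cells with R848, and of 78247 in Batf2-/- and 136818 in WT cells untreated. The part of these cells in the Batf difference was not tested.

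Batf3 gave a low signal on every array. Its probe read 40.2 ± 5.37 in Batf2-/- cells with R848 and 35.9 ± 4.60 in Batf2-/- cells untreated, against 52.6 ± 7.03 in WT cells with R848 and 33.0 ± 4.48 in WT cells untreated. In order of level, WT with R848 came first, then Batf2-/- with R848, Batf2-/- untreated and WT untreated, and the last 3 overlapped within their errors. At most 3 of 308 negative control spots on an array were as bright as Batf3, and its signal was 11.6 to 13.8 times the median negative control spot.

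The R848 response of Batf3 had a log2 value of 0.22 in Batf2-/- cells (propagated error 0.27) and 0.74 in WT cells (a ratio of 1.67, error 0.27). The WT value was larger than that of 90.5% of measured genes and did not reach 2-fold. Between genotypes the log2 difference was -0.32 with R848 and 0.21 without, each with an error of 0.27. The authors' deposited table gives log2 ratios of 0.19 and 0.72 for the Batf2-/- and WT responses, and of -0.29 and 0.25 for Batf2-/- over WT with R848 and without.

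Read against the whole array, 1 of the 3 members passed 2-fold in the Batf2-/- response (Batf, higher), where 6.73% of 20156 genes were called higher and 6.47% lower. In the WT response 2 of 3 were called higher (Batf and Batf2), against 5.94% of 19551 genes. With R848, 1 of 3 was called lower in Batf2-/- than in WT cells (Batf2), against 2.42% of 18989 genes, or 4.73% in either direction. That call is of the deleted gene and is no result about the family, and neither Batf nor Batf3 passed there. Without R848 none of the 3 passed, against 5.99% of 20300 genes in either direction (2.8% higher, 3.18% lower). For the Batf2-/- response minus the WT response 1 of 3 was called lower (Batf2, -2.36 with its dim array at the bound). Among all 19079 genes 2.71% were called lower there, 3.16% higher and 5.87% in either direction. Again the call was that of the deleted gene, and neither Batf nor Batf3 passed. Among genes called, 51.0% were higher in the Batf2-/- response and 46.9% in the WT response, and centring each array on its median moved these shares to 63.1% and 61.0%. Between the genotypes with R848 the share higher was 48.9%, and 60.2% in the authors' deposited table.

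**Figure D2:**
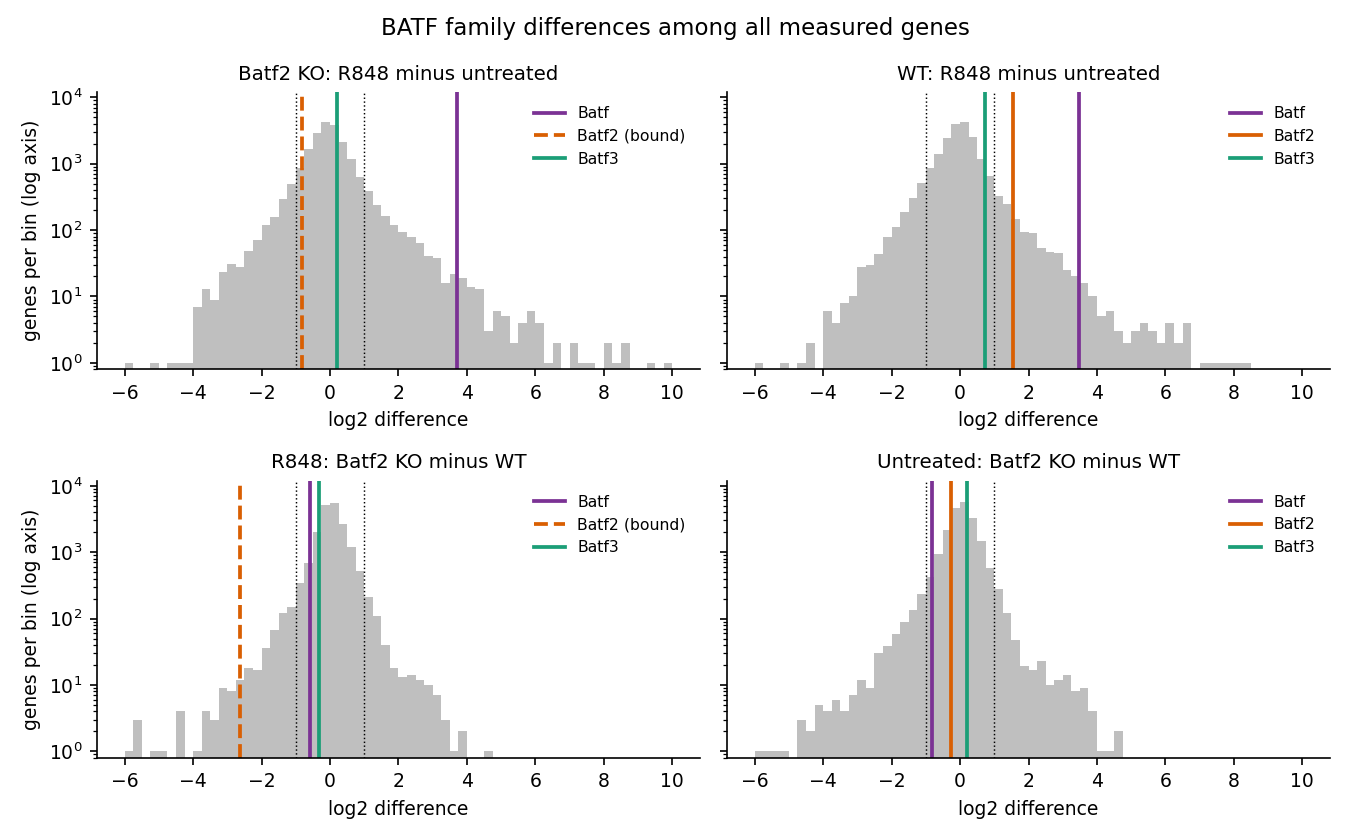
Log2 differences of Batf, Batf2 and Batf3 (vertical lines) over the distribution for all measured genes (grey, genes per bin on a log axis, genes beyond either end counted in the end bins); dotted lines mark 2-fold and a dashed line is a bound. Batf lies at 3.72 and 3.48 in the R848 responses of Batf2-/- and WT cells, and Batf2 at -2.63 between the genotypes with R848.

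The dimer and composite-element partners of BATF proteins were well above background on all 4 arrays. Of these 6 partners, 1 was called higher and 1 lower in the Batf2-/- response, and 0 higher and 1 lower in the WT response. The shares of all genes were 6.73% higher and 6.47% lower in the Batf2-/- response, and 5.94% and 6.73% in the WT response. The partners' median log2 difference was 0.13 in the Batf2-/- response and -0.19 in the WT response, against -0.050 and -0.0071 over all genes. Between the genotypes none of the 6 passed 2-fold, with R848 (median 0.31, all genes 0.033) or without (median 0.013, all genes 0.056). Among all genes 4.73% passed with R848 and 5.99% without, in either direction.

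Irf1, which encodes the interferon regulatory factor that works with BATF2 in macrophages, read 3570 in Batf2-/- cells with R848 and 1062 untreated, against 2068 in WT cells with R848 and 1115 untreated. It rose 3.50-fold in Batf2-/- cells (log2 1.81), and its log2 response in WT cells was 0.96, just short of the call. With R848 the log2 difference between Batf2-/- and WT cells was 0.86, and untreated it was 0.01.

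Irf8, a composite-element partner and a regulator of myeloid fate, was lower with R848 in both genotypes. It read 525 in Batf2-/- cells with R848 and 1268 untreated, against 618 in WT cells with R848 and 1334 untreated. It fell 2.32-fold in Batf2-/- cells (log2 -1.22) and 2.06-fold in WT cells (log2 -1.04), and the genotypes differed by -0.16 with R848 and 0.01 without. With arrays centred on the median, Irf1 passed 2-fold in WT cells and Irf8 did not, and with a gene's probes averaged neither passed there.

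The JUN genes did not pass 2-fold in any of these comparisons. Jun, the founding AP-1 subunit, had log2 responses of 0.18 in Batf2-/- and -0.33 in WT cells and differed between the genotypes by 0.49 with R848. Junb, a JUN partner of BATF in lymphocytes, had log2 responses of -0.03 and -0.04, and Jund 0.17 and 0.34, in the same order. Irf4, the other composite-element partner, had log2 responses of 0.09 in Batf2-/- and -0.64 in WT cells and differed by 0.44 with R848 and -0.28 without.

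FOS-type factors compete with BATF for JUN, and ATF3 and JDP2 are bZIP repressors of AP-1 and stress genes. Of the 6 genes in this group, 2 were called higher and 0 lower in the Batf2-/- response, and 0 higher and 1 lower in the WT response, with medians of 0.21 and -0.065. Over all genes 6.73% were called higher and 6.47% lower in the Batf2-/- response and 5.94% higher and 6.73% lower in the WT response, with medians of -0.050 and -0.0071. Jdp2 read 635 in Batf2-/- cells with R848 and 260 untreated, against 905 in WT cells with R848 and 575 untreated. It rose 2.54-fold in Batf2-/- cells (log2 1.34), its WT value was 0.72, and untreated it was 2.09-fold lower in Batf2-/- than in WT cells (log2 -1.06). Jdp2 was the 1 gene of 5 measured in the group to pass in that comparison, where 3.18% of all genes were called lower. With normexp Jdp2 did not pass there.

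Fosl1 was at least 2.14-fold higher with R848 in Batf2-/- cells and at least 1.88-fold higher in WT cells, since neither untreated array was well above background, and median centring and quantile normalization brought the WT value past 2-fold. With normexp neither value of Fosl1 passed. Fosb fell 2.16-fold in WT cells (log2 -1.11) and had a log2 value of -0.19 in Batf2-/- cells. The WT call of Fosb was lost with median centring, with normexp and with averaged probes. Fos had log2 responses of -0.60 in Batf2-/- and -0.37 in WT cells, Fosl2 of 0.11 and -0.14, and Atf3 of 0.31 and 0.01.

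**Figure D3:**
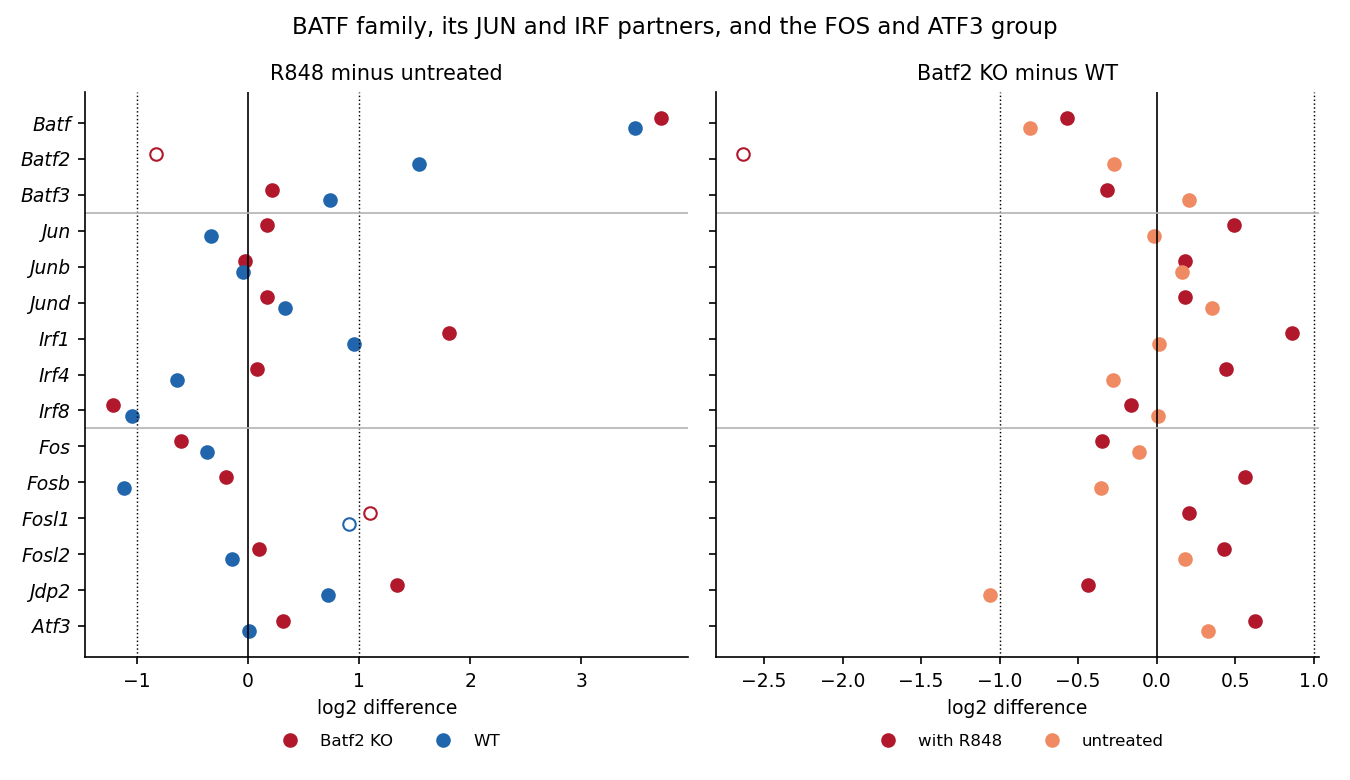
Log2 differences of the BATF family, its JUN and IRF partners and the FOS and ATF3 group, for R848 minus untreated in each genotype (left) and for Batf2-/- minus WT under each treatment (right); dotted lines mark 2-fold and open circles are bounds. Batf lies at 3.72 and 3.48 in the responses of Batf2-/- and WT cells, Irf1 at 1.81 and 0.96, and Jdp2 at -1.06 between the untreated genotypes.

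Among 30 other bZIP factors, 6 were called higher and 4 lower in the Batf2-/- response, and 4 higher and 4 lower in the WT response, where 13.2% and 12.7% of all genes were called in either direction. Maff, a small MAF factor, rose by 2.58 on the log2 scale in Batf2-/- and by 2.82 in WT cells. Cebpb and Cebpd, inflammatory C/EBP factors, rose by 1.71 and 1.81 in Batf2-/- cells and by 1.33 and 1.25 in WT cells. Crem, a cyclic AMP-responsive factor, fell by 1.40 in Batf2-/- cells and fell by 1.59 in WT cells at its brightest probe, but in WT cells only 3 of its 5 probes had that sign.

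Maf, a large MAF factor, rose by 1.57 on the log2 scale in WT cells and had a value of 0.92 in Batf2-/- cells. With probes averaged the WT call of Maf was lost, and with median centring its Batf2-/- response also passed 2-fold. None of the 30 passed 2-fold for the Batf2-/- response minus the WT response, where 5.87% of all genes passed in either direction. The largest values there were -0.65 for Maf, 0.56 for Cebpd, -0.56 for Creb3 and 0.54 for Hlf. The Hlf value is a difference between bounds, since neither array with R848 was well above background. It is therefore neither a bound nor a measured value. No gene of the list was called higher between the genotypes, and 2 were called lower in Batf2-/- cells with R848 and 2 without, among 29 and 30 measured. The shares of all genes called lower were 2.42% with R848 and 3.18% without, and those called higher 2.32% and 2.8%.

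A list of 5 macrophage effector genes has been linked to BATF2, made up of the cytokines Tnf, Il12b and Il23a, the chemokine Ccl5 and Nos2, the inducible nitric oxide synthase. In the Batf2-/- response 3 of the 4 measured were called higher, and in the WT response 3 of 5, against 6.73% and 5.94% of all genes. Il12b read 2358 in Batf2-/- cells with R848 and 18.3 untreated, against 5199 in WT cells with R848 and 20.8 untreated. Its response was 134-fold in Batf2-/- cells and 262-fold in WT cells, and with R848 it was 2.10-fold lower in Batf2-/- cells (log2 -1.07).

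Tnf rose by 5.62 on the log2 scale in Batf2-/- cells and by 4.81 in WT cells, and Ccl5 by 4.93 and 4.70. Between the genotypes with R848 the log2 differences were 0.31 for Tnf, -0.30 for Ccl5 and 0.45 for Nos2. Il12b alone of the 4 measured therefore passed 2-fold there, against 4.73% of all genes in either direction. Nos2 had log2 responses of 0.44 in Batf2-/- and -0.07 in WT cells. Il23a was well above background on 1 array, that of WT cells untreated, at 17.4.

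Batf2 is known as an interferon-inducible gene, and its log2 responses of -0.82 (at the bound) in Batf2-/- and 1.54 in WT cells are set here beside those of 19 others. Of these 19 interferon-stimulated genes, 18 were called higher in the Batf2-/- response (median log2 4.19) and 17 in the WT response (median 2.46), none lower. Among all genes 6.73% and 5.94% were called higher in these responses, with medians of -0.050 and -0.0071. With R848, 3 of the 19 were called higher in Batf2-/- than in WT cells (median 0.55), and untreated 8 were called lower (median -0.54). The shares of all genes were 2.32% higher with R848 (median 0.033) and 3.18% lower untreated (median 0.056). With normexp 3 of the 19 were called lower untreated (Ifit3, Oasl1 and Irf7), and 6 with probes averaged. With R848 the 3 called higher became 2 under median centring, quantile normalization and normexp. The largest Batf2-/- responses were those of Ifit1 at 6.24, Cxcl10 at no less than 6.10, Mx1 at 5.75 and Oasl1 at 5.53, and the largest WT responses those of Gbp2 at 4.19, Ifit1 at 4.07, Gbp3 at 3.77 and Mx1 and Isg15 at 3.57. For the Batf2-/- response minus the WT response 10 of 19 were called higher, led by Cxcl10 at 3.23 (from a bound), Oasl1 at 2.58, Ifit3 at 2.44 and Ifit2 at 2.42. In that comparison 3.16% of all genes were called higher, and with normexp the 10 became 8.

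The genes beside Batf2 on chromosome 19 were read next, since they share the region of the deleted gene. In the gene order of GRCm38.p6 the nearest named genes are Sac3d1, Snx15 and Arl2 on one side and Majin, Gpha2 and Ppp2r5b on the other. Gpha2, a glycoprotein hormone subunit gene, read 37.5 in Batf2-/- cells with R848 and 51.7 untreated, against 92.5 in WT cells with R848 and 42.1 untreated. It rose 2.30-fold with R848 in WT cells and had a log2 response of -0.41 in Batf2-/- cells, and with R848 it was 2.35-fold lower in Batf2-/- than in WT cells (log2 -1.23). Majin was well above background on 1 array, WT untreated at 29.5, which puts untreated Batf2-/- cells at least 2.42-fold lower. With normexp neither Gpha2 nor Majin passed 2-fold in these comparisons. Between the genotypes the other 4 lay between -0.02 and 0.41 with R848 and between -0.34 and 0.27 without.

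Batf has Fos and Jdp2 among its 3 nearest named genes on one side, and Batf3 has Atf3 among its 3 nearest on the other. With R848 in Batf2-/- cells the log2 responses were 3.72 for Batf, 1.34 for Jdp2 and -0.60 for Fos, and in WT cells they were 3.48, 0.72 and -0.37. Of the 6 neighbours of Batf, 1 was called higher and 1 lower in the Batf2-/- response and 1 higher and 0 lower in the WT response. Among all genes 6.73% were called higher and 6.47% lower in the Batf2-/- response, and 5.94% and 6.73% in the WT response. For Batf3 and Atf3 the log2 responses were 0.22 and 0.31 in Batf2-/- cells and 0.74 and 0.01 in WT cells.

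The genes whose pattern over the 4 arrays was most like each member's were found by the distance between log2 values, each gene centred on its own mean. For Batf the nearest of 14255 candidates were Ass1 (argininosuccinate synthase) at a distance of 0.43, Marcksl1 at 0.45, Slco3a1 at 0.46, Cdc42ep2 at 0.47 and Slc2a6, a hexose transporter, at 0.48. Their R848 responses were 14.8-, 17.7-, 17.7-, 12.1- and 20.8-fold in Batf2-/- cells and 10.1-, 8.10-, 8.67-, 14.7- and 10.9-fold in WT cells. For Batf3 the nearest were Aebp2 at 0.034, Tnni1 at 0.058, Esrp1 at 0.059, Usp39 at 0.061 and Zeb2os at 0.062, all of them patterns with WT responses between 1.59- and 1.72-fold.

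For Batf2, taken at its measured signals, the nearest of 14369 candidates lay farther away: Dnd1 at 0.81, Impa2 at 0.84, C2 at 0.86, Hal at 0.96 and Sema6d at 0.98. Impa2, an inositol monophosphatase gene, read 96.2 in Batf2-/- cells with R848 and 313 untreated, against 592 in WT cells with R848 and 458 untreated. With R848 it was 5.85-fold lower in Batf2-/- cells, Hal (histidine ammonia-lyase) 3.87-fold and Sema6d 3.38-fold. Dnd1 was at least 4.48-fold lower and C2, a complement component, at least 4.36-fold lower. The Batf2 signal used for Batf2-/- cells with R848 was not well above background. All the genes named as nearest to Batf, Batf2 or Batf3 were picked for that likeness. Their fold values follow from the choice and are no separate result. A distance over 4 arrays of 1 sample each describes these arrays and nothing beyond them.

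**Figure D4:**
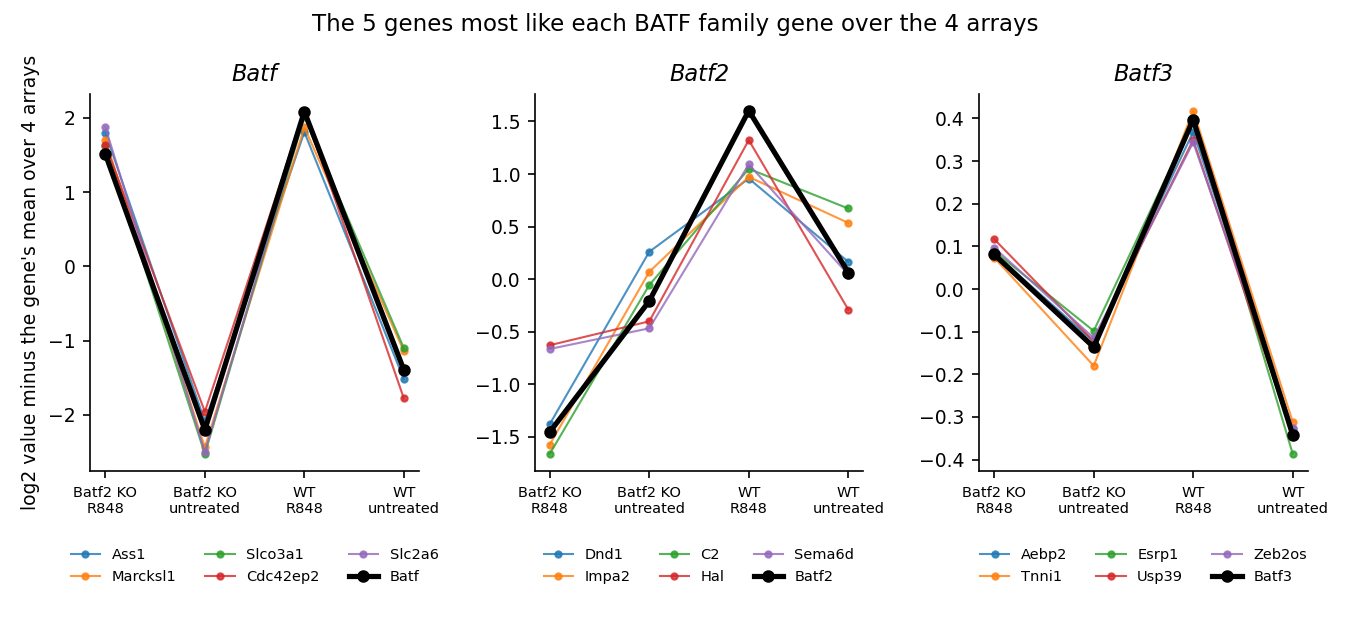
Log2 value minus the gene's mean over the 4 arrays for Batf, Batf2 and Batf3 (black) and the 5 genes nearest to each; the vertical scales differ between panels. The distances are 0.43 to 0.48 for Batf, 0.81 to 0.98 for Batf2 and 0.034 to 0.062 for Batf3.

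Markers of the type 1 conventional dendritic cell, which needs BATF3, were set beside Batf3. Of 7 such markers, 5 in Batf2-/- with R848, 6 in Batf2-/- untreated, 5 in WT with R848 and 6 in WT untreated were well above background, with summed signals of 1350, 2448, 1987 and 2912 in that order. Wdfy4 (850 and 876 in Batf2-/- with R848 and untreated, 1157 and 1381 in WT) and Cadm1 (291 and 1368, against 524 and 1321) made up most of that signal and, with Tlr3 (147 and 117, against 98.4 and 109), Clec9a and Cd8a, were well above background on all 4 arrays. Itgae was above background on none of the arrays, and Xcr1, a defining receptor of these cells, on neither array with R848. Clec9a, another defining receptor, read 26.4 in Batf2-/- cells with R848 and 36.9 untreated, against 28.7 in WT cells with R848 and 59.1 untreated. The part of such cells in the low Batf3 signal was not tested. Markers of neutrophils (4 of 5 on the array), other dendritic cells, T cells, B cells and fibroblasts were counted too. Between the genotypes with R848, called genes numbered 0 of 4, 1 of 3, 0 of 4, 0 of 5 and 0 of 3 in that order, the 1 being Ccr7 (log2 -1.38), and 0 of those in the T cell list passed 2-fold in any comparison. Untreated, the counts were 1 of 4 (S100a8, log2 -1.24), 0 of 4, 0 of 4, 1 of 5 (Cd79b, log2 -1.09) and 0 of 3. Among all genes 4.73% were called between the genotypes with R848 and 5.99% untreated, in either direction.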

How the data were processed

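Total RNA of 4 macrophage cultures was measured on 1-colour (Cy3) Agilent arrays, 1 per group. The submitters' processing notes name Agilent Feature Extraction 11.5.1.1 as the program that read the spots (per the file headers, protocol GE1_1105_Oct12, grid annotated to mm9). The deposited processed signal is a linear intensity after background subtraction, without normalization between arrays, per the file headers. The authors' deposited table holds scaled intensities and log2 ratios of 1 array over another. Dividing its intensities by the processed signal gave a constant for each array (4.13, 4.06, 3.85 and 3.72 for Batf2-/- with R848, Batf2-/- untreated, WT with R848 and WT untreated), within 1% for 100% of its rows, of unknown origin, so what that scale refers to is unknown.

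Main values are log2 of the processed signal minus each array's 75th percentile (252, 262, 265 and 278 in the same order). Control spots and outlier spots (70, 76, 115 and 83) were left out, and spots of a probe were averaged. A gene entered a comparison at its brightest probe if at least 1 array compared had it well above background. A dim array's value was set to the lowest signal well above background there (14.5, 11.5, 18.6 and 12.1) or its own if higher, which gives "at least N-fold". A gene is called at 2-fold. With 1 array per group there is no SD within a group and no test over samples was run, and precision is limited by there being so few arrays. Errors are those of Feature Extraction per spot, propagated. Probes of similar brightness with 10 spots each (8 for Batf, 6 for Batf2 and 10 for Batf3) gave a smaller spread, 0.098 for the Batf2-/- response and 0.088 for the WT response at Batf's brightness (SD, log2). The steps were tested on simulated data.

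Of 56605 probes 40458 were named, 28867 by Entrez ID, 75 by current symbol, 45 by synonym, 10230 by transcript accession and 1241 by the symbol in the file; GRCm38.p6 served for names and gene order. The promoter table matched 2 of the 3 members. Named genes were the members, their listed partners, the FOS and ATF3 group, the BATF2-linked genes, the neighbours of Batf2, the 4 largest absolute differences of the other bZIP and interferon lists in each response and in their difference, and the 5 most alike genes per member. A gene that this rule picks is not reported here. Further neighbours and marker genes named were chosen after their values were seen. Members and lists were chosen with earlier results of these data known. Alternatives were median centring, quantile normalization, normexp (limma 3.58.1 in R 4.3.3, offset 50), medians of pixels, the authors' table, stricter and no filters, probe means, outlier spots kept, bright areas left out and 1.5-fold. Normexp was run on the median signal, since the scanner files used here hold no mean-signal column.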

Additional observations from a re-analysis of the deposited data

Results flagged for a closer look

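Among the family, its listed partners, the FOS and ATF3 group, the BATF2-linked genes and the neighbours of Batf2, 5 genes had R848 responses of opposite sign in Batf2-/- and WT cells with both responses larger than the spread between repeated spots of similar brightness. The difference was not tested. Batf2 had log2 responses of -0.82 (at the bound) in Batf2-/- and 1.54 in WT cells, a difference of -2.36. Gpha2, which lies beside Batf2, had -0.41 and 1.20, a difference of -1.61. Snx15, on the other side of Batf2, had 0.27 and -0.48, a difference of 0.75. Jun had 0.18 and -0.33, a difference of 0.51, and Fosl2 0.11 and -0.14, a difference of 0.25, with none of these 4 responses at 2-fold. Only 1 of the 2 Fosl2 probes had that sign in the Batf2-/- response, and only 1 of 2 in the difference. Median centring moved the WT response of all genes by 0.15, which is more than the -0.14 of Fosl2. Irf4 (0.09 and -0.64, a difference of 0.72) and Nos2 (0.44 and -0.07, a difference of 0.51) had opposite signs too, but in each the smaller response lay within that spread.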

How the results depend on the processing

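No paired analysis was possible because each group holds 1 array and the labels carry no replicate numbers, and no array can be left out for the same reason. Of 172 recomputed values of Batf, Batf2 and Batf3, 152 moved by less than the propagated spot error without changing a call, and no called value changed sign. Many of the 152 could not move, so the count is no measure of stability. Each member has 1 probe, so averaging probes changes nothing. Calling at 1.5-fold reuses the main values, as do the stricter and no filters wherever no array was dim. Normexp, which adds an offset of 50, larger than most Batf2 and Batf3 signals, gave log2 values of 2.60 for Batf, -0.22 for Batf2 in the Batf2-/- response, and 2.81 for Batf, 0.72 for Batf2 and 0.32 for Batf3 in the WT response. It gave -1.05 for Batf2 between the genotypes with R848, -0.35 for Batf untreated, and -0.21 for Batf and -0.94 for Batf2 in the difference of responses. The Batf2 calls in the WT response and in the difference of responses were lost there. Medians of pixels gave 3.25 for Batf in the Batf2-/- response, 1.21 for Batf2 in the WT response and -0.56 for Batf between untreated genotypes. With no filter the Batf2-/- response of Batf2 was -1.25 and passed 2-fold. At 1.5-fold, Batf2 in the Batf2-/- response (-0.82), Batf3 in the WT response (0.74) and Batf between untreated genotypes (-0.81) were also called. Subtracting the shift of the 48 neighbouring spots, chosen after seeing the data, gave -1.43 for Batf2 in the Batf2-/- response, 3.23 for Batf in the WT response, -3.20 for Batf2 between the genotypes with R848 and -3.06 for Batf2 in the difference of responses. The difference of responses of Batf, 0.23, had the opposite sign with normexp and with medians of pixels (-0.018). The cause of these moves was not tested.

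Genes called numbered 2662, 2478, 899, 1215 and 1120 in the Batf2-/- response, the WT response, between genotypes with R848 and untreated, and in the difference of responses. In that order they were 1357, 1277, 252, 330 and 245 with normexp, 4089, 3788, 2216, 2660 and 3490 with no filter, and 5831, 5466, 2840, 3548 and 3481 at 1.5-fold. Medians of pixels gave 771 between untreated genotypes and 659 for the difference of responses, and requiring every array above background gave 594 between genotypes with R848. Median centring moved the median of all genes by 0.14 in the Batf2-/- response and 0.15 in the WT response. Batf2 has no value in the authors' table, nor, for comparisons with its dim array, under the filter on every array. Its signal in Batf2-/- cells with R848 was not well above background, which leaves only a bound there.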

Other observations

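Cd8a, a marker of type 1 conventional dendritic cells, was chosen after its values were seen. It read 35.2 in Batf2-/- cells with R848 and 16.6 untreated, against 179 in WT cells with R848 and 21.6 untreated. It rose 2.20-fold with R848 in Batf2-/- cells and 8.68-fold in WT cells, and with R848 it was 4.83-fold lower in Batf2-/- than in WT cells. Of the 5 markers of its list measured there, Cd8a alone was called lower, against 2.42% of all genes. The others had log2 differences of -0.78 (Cadm1), -0.37 (Wdfy4), -0.05 (Clec9a) and 0.65 (Tlr3). Cadm1 was called lower with R848 in both genotypes at its brightest probe (log2 -2.18 in Batf2-/- and -1.27 in WT cells). In each response only 2 of its 3 probes had that sign, and with probes averaged the WT call of Cadm1 was lost. With normexp the Batf2-/- response of Cd8a was below 2-fold. Flvcr2, a haem transporter family gene beside Batf, was also chosen after its values were seen, with 17.3 in Batf2-/- cells with R848 and 9.82 untreated, against 47.2 in WT cells with R848 and 8.62 untreated. With R848 its log2 difference between Batf2-/- and WT cells was -1.37, and neither untreated array was well above background.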
